A study of Mus musculus with 27 samples.

Results

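A group of 8 genes in the islet count table was chosen for unlike effects of the Nkx2.2 SD mutation and of Nkx2.2 loss in mouse pancreatic islets: Accn2, Tom1l1, Cecr6, Mapt, Bcl6b, Hspa12a, Snhg11 and Cc2d2b. They are 8 of 26487 gene rows in that table and 8 of the 15995 genes for which the difference between both effects could be fitted. They were picked from their measured log2 fold changes in the same islet libraries, by no stated threshold, so the islet values below describe the choice and carry no test. Accn2 and Cecr6 are the older symbols of Asic1 and Tmem121b, which the embryonic table uses for both and the progenitor table for Asic1.

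The islet libraries came from mice with the SD mutation in beta cells at 8 weeks (betaSDmut, 3 libraries) with wildtype controls of that age (2 libraries), and from islets at 4 weeks labelled as beta-cell knockout (betaKO, 2 libraries) with their controls (2 libraries). Whole pancreata at E15.5, a stage of embryonic development, came from wildtype animals (3) and animals carrying the Nkx2.2SDmut allele (4). Motor neuron progenitors at day 4 were differentiated from mouse embryonic stem cell lines with a doxycycline-inducible, FLAG-tagged copy of Nkx2.2, either wildtype (iNkx2.2, 3 libraries) or SD-mutant (iSDmut, 2 libraries), both treated with doxycycline at 1 µg/ml for about 16 h, and from the untreated iNkx2.2 line (pMN, 3 libraries). Nkx2.2 binding was measured by chromatin immunoprecipitation and sequencing in 2 replicates of MIN6, a mouse beta-cell line. The Cre driver that restricts the islet alleles to beta cells is not given in the sources used here, and iNkx2.2 and iSDmut are different cell lines. Each islet genotype was sampled at 1 age, so age, genotype and islet set cannot be told apart in any comparison of betaSDmut with betaKO. The labels do not say which libraries come from separate animals or cultures, so the spread between replicates may be partly technical.

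Nkx2.2 is a homeodomain transcription factor that beta cells need to form and to keep their identity, and that patterns the ventral spinal cord. It can activate or repress its targets. The SD, or NK2-specific domain, is a conserved stretch of NK2-family proteins outside the homeodomain. Genes that respond in opposite directions to a mutated and to a missing factor are used to ask whether the mutant protein acts like the absence of the protein.

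Total counts were 12398041 to 32385406 per islet library, 38447596 to 41840638 per embryonic library and 17757991 to 46840701 per progenitor library. The Nkx2-2 transcript was at 104, 84.8 and 80.8 CPM (counts per 1e+06 counts, scaled by the trimmed mean of M values, TMM) in betaSDmut against 103 and 88.6 in controls, and at 92.9 and 64.6 CPM in betaKO against 103 and 76.2. Its log2 fold change was -0.10 (SE 0.128, edgeR adjusted p 0.68) in betaSDmut and -0.18 (SE 0.237, edgeR adjusted p 0.779) in betaKO, so the transcript level does not check either label; which part of the gene the knockout removes is not given in the sources used here. BetaKO below stands for the libraries so labelled. The sum of 6 beta-cell markers was 196771 to 214953 CPM in betaSDmut, 232983 to 238513 in its controls, 164661 to 176672 in betaKO and 207298 to 211497 in its controls. The sum of 4 alpha-cell markers was 50575 to 62403 CPM in betaKO against 24964 to 29166, and that of 14 acinar markers 12015 to 34966 against 5113 to 9166. In betaSDmut the sums were 21843 to 32213 CPM against 31206 to 39509 for alpha-cell and 914 to 8814 against 6556 to 10715 for acinar markers. Of the 4 alpha-cell markers, edgeR called 1 higher and 0 lower in betaSDmut, with a median log2 fold change of -0.03. The alpha-cell sum in betaSDmut thus does not describe each marker. In betaKO 1 of the 4 was called higher and 0 lower, with a median of 0.97. The sum of 5 stellate and fibroblast markers was 105 to 167 CPM in betaSDmut against 205 to 267 and 341 to 419 CPM in betaKO against 204 to 216, without overlap and in opposite directions, with 2 of the 5 called higher in betaKO by edgeR. Ppy, the marker of PP cells, was called higher in betaKO, at 6592 to 8198 CPM against 2577 to 2745. The part of these other cell types in the values of the 8 genes was not tested. In bulk islets, fewer beta cells and less RNA per beta cell cannot be told apart. Gene counts of the 4-week samples resemble those of the other islets, whereas their molecule label reads genomic DNA. Xist, taken as a marker of female animals, was at 740, 2.44 and 1.30 CPM in betaSDmut against 1.67 and 3.51 in controls. It was at 0.769 and 0.0781 CPM in betaKO against 987 and 0 in controls. Sex was thus uneven between the groups compared, and its part in the islet values was not tested.

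Of the 8 genes, 6 were higher in every betaSDmut library than in every 8-week control and lower in every betaKO library than in every 4-week control: Accn2, Cecr6, Bcl6b, Mapt, Cc2d2b and Tom1l1. Over all genes, 2.89% (427 of 14762) showed that double pattern without overlap, and since the rule selected for it, nothing is read from the count of 6. Hspa12a was lower in both genotypes, by far more in betaSDmut. Snhg11 was lower in betaSDmut and slightly higher in betaKO. With edgeR's quasi-likelihood test, 7.94% of all genes tested were called in betaSDmut, 1.56% in betaKO and 1.21% for the difference of both effects, at a Benjamini-Hochberg adjusted p under 0.05. The plot of levels by library shows these patterns.

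**Figure D1:**
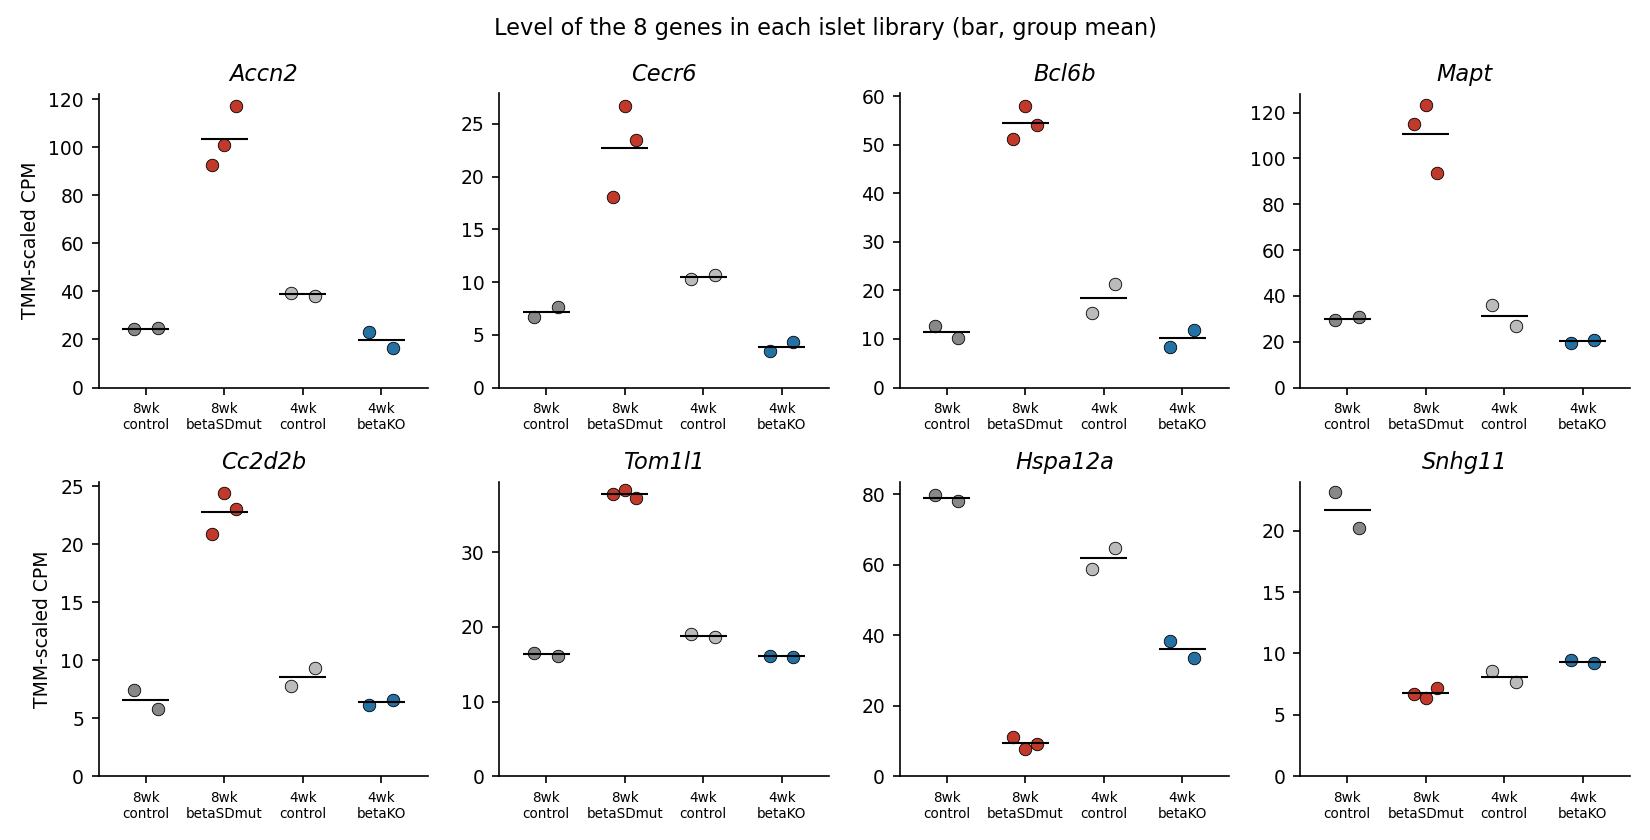
TMM-scaled CPM (y axis, from 0) of each of the 8 genes in the 9 islet libraries, 1 point per library, grouped by age and genotype (x axis), with the group mean as a bar. The 3 betaSDmut points lie apart from both control groups in 7 of 8 panels; for Snhg11 the 2 points that stand apart are the 8-week controls.

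Accn2 encodes a subunit of the acid-sensing ion channels, proton-gated sodium channels best known from neurons. It was at 92.4, 101 and 117 CPM in betaSDmut against 24.3 and 24.6 CPM in 8-week controls, and at 23.1 and 16.3 CPM in betaKO against 39.5 and 38.1 CPM in 4-week controls. The 2 genotypes thus lay on either side of their controls, with no overlap in either set. The fold change was 4.22 in betaSDmut (log2 2.08, SE 0.127) and 0.510 in betaKO (log2 -0.97, SE 0.178). The effects differed by 3.05 on the log2 scale (SE 0.227).

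Mapt encodes tau, a protein that binds and stabilises microtubules in axons. Its level was 115, 123 and 93.7 CPM in betaSDmut and 29.5 and 30.6 CPM in 8-week controls. In betaKO it was 19.5 and 20.9 CPM against 35.9 and 26.7 CPM. The betaSDmut libraries stood well above all others, while the betaKO libraries lay below 2 controls that differed from each other. The log2 fold changes were 1.87 (SE 0.126) and -0.63 (SE 0.168), a difference of 2.52 (SE 0.227). Without 4-week control replicate 1 the betaKO value was -0.40. The sum of 6 Schwann and neuron markers was 25.3 to 48.7 CPM in betaSDmut against 39.4 to 53.5 in its controls, ranges that overlap. It was 44.6 to 50.7 CPM in betaKO against 35.6 to 36.2 in its controls, without overlap. By edgeR, 1 of 4 tested was called lower in betaSDmut and 0 of 5 were called in betaKO. For the difference of effects 1 of 6 was called lower, with a median of -2.08 on the log2 scale. The part of these markers in the Mapt values was not tested.

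Bcl6b encodes a zinc finger repressor related to Bcl6 that is known from endothelial cells and lymphocytes. It was at 51.2, 58.0 and 54.1 CPM in betaSDmut against 12.7 and 10.2 CPM, and at 8.35 and 11.9 CPM in betaKO against 15.3 and 21.4 CPM. The betaSDmut libraries were close to each other and far above every other islet library. The log2 fold changes were 2.25 (SE 0.122) and -0.85 (SE 0.249), a difference of 3.11 (SE 0.291). The summed level of 7 endothelial markers was 348 to 413 CPM in betaSDmut and 408 to 430 CPM in 8-week controls. In the 4-week set the same sum was 338 to 410 CPM in betaKO and 483 to 548 CPM in controls, lower together with Bcl6b, and its part in the betaKO value was not tested.

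Cecr6 encodes a membrane protein named for the human cat eye syndrome region. It was at 18.0, 26.7 and 23.5 CPM in betaSDmut against 6.73 and 7.63 CPM, and at 3.49 and 4.29 CPM in betaKO against 10.3 and 10.7 CPM. Its betaKO effect was the largest in size among the 8 genes, with a log2 fold change of -1.43 (SE 0.205), beside 1.66 (SE 0.191) in betaSDmut. The effects differed by 3.10 (SE 0.276).

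Cc2d2b is a paralog of Cc2d2a, a gene of the ciliary transition zone. It was at 20.9, 24.5 and 23.0 CPM in betaSDmut against 7.40 and 5.81 CPM, and at 6.16 and 6.56 CPM in betaKO against 7.73 and 9.31 CPM. Tom1l1 encodes an adaptor of endosomal sorting that also binds Src-family kinases. It was at 37.8, 38.3 and 37.3 CPM in betaSDmut against 16.6 and 16.1 CPM, and at 16.1 and 16.0 CPM in betaKO against 19.0 and 18.6 CPM. Both genes had a clear gap in the 8-week set and a small one in the 4-week set. The log2 fold changes of Cc2d2b were 1.78 (SE 0.139) and -0.42 (SE 0.197), a difference of 2.21 (SE 0.219). Those of Tom1l1 were 1.21 (SE 0.0706) and -0.23 (SE 0.118), a difference of 1.44 (SE 0.109), the smallest of the 8 genes in size.

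Hspa12a encodes a distant member of the Hsp70 family. It was at 11.03, 7.77 and 9.20 CPM in betaSDmut against 79.9 and 78.2 CPM in 8-week controls. In betaKO it was at 38.4 and 33.5 CPM against 58.9 and 64.8 CPM in 4-week controls. Both genotypes lay below their controls, so the gene differs from the rest by the size of the effect and not by its sign. The fold change was 0.118 in betaSDmut (log2 -3.09, SE 0.145) and 0.582 in betaKO (log2 -0.78, SE 0.114), a difference of -2.30 (SE 0.200).

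Snhg11 is a host gene of small nucleolar RNAs. It was at 6.66, 6.40 and 7.17 CPM in betaSDmut, 23.1 and 20.2 CPM in 8-week controls, 9.47 and 9.21 CPM in betaKO and 8.53 and 7.70 CPM in 4-week controls. The group that stood apart was the 8-week controls, and betaSDmut lay near both 4-week groups. The log2 fold changes were -1.69 (SE 0.110) and 0.20 (SE 0.168), a difference of -1.88 (SE 0.170). The betaKO value was 0.13 without 4-week control replicate 2. The 8-week controls exceeded the 4-week controls by 1.41 (SE 0.125), whereas betaSDmut differed from betaKO by only -0.47 (SE 0.116). Age, genotype and islet set cannot be told apart in these values.

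**Figure D2:**
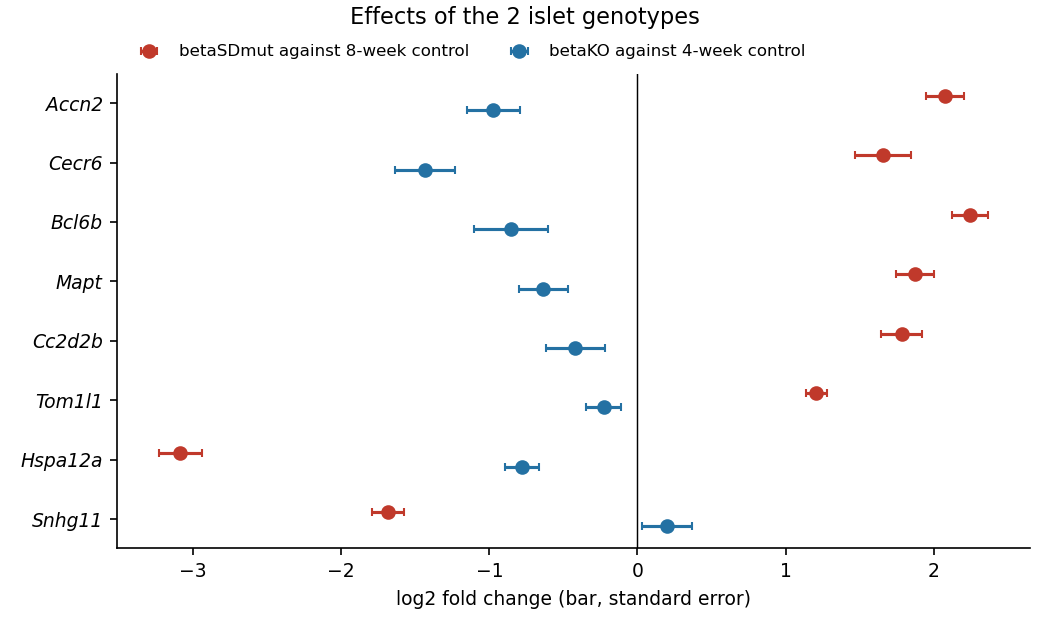
Log2 fold change (x axis) of each of the 8 genes (y axis) in betaSDmut against 8-week controls and in betaKO against 4-week controls, with standard errors as bars. The effects lie on opposite sides of 0 for 7 of 8 genes, and for Hspa12a both lie below 0, at -3.09 and -0.78.

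The controls of both ages were closer for the other genes. The 8-week minus 4-week control difference was -0.67 (SE 0.162) for Accn2, -0.67 (SE 0.208) for Bcl6b, -0.55 (SE 0.193) for Cecr6 and -0.36 (SE 0.159) for Cc2d2b. It was -0.21 for Tom1l1, -0.06 for Mapt and 0.35 for Hspa12a. The direct difference of betaSDmut from betaKO was 2.39 for Accn2, 2.55 for Cecr6, 2.45 for Mapt, 2.43 for Bcl6b, 1.84 for Cc2d2b, 1.24 for Tom1l1 and -1.95 for Hspa12a, values that the choice of genes helped to set. With the acinar markers as a covariate, the differences of effects were 3.49 for Accn2, 3.20 for Cecr6, 2.95 for Bcl6b, 2.29 for Mapt, 2.26 for Cc2d2b, 1.44 for Tom1l1, -2.39 for Hspa12a and -1.71 for Snhg11; as values of genes picked on this contrast they carry no test, and the part of acinar RNA was not tested. In the authors' deposited table, where both genotypes are set against 1 control term, 7 of the 8 genes were called different between betaKO and betaSDmut, and Snhg11 was not. Those calls concern the contrast on which the genes were chosen, so nothing is read from the count of 7. That table called Hspa12a lower in both genotypes and no other of the 8 genes in betaKO. Its betaKO value for Snhg11 was -0.47, opposite in sign to the 0.20 found here against 4-week controls.

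Per transcript length, the authors' FPKM (a level per transcript length and library size) gave the order of levels in islets, over 7 genes since Cc2d2b was not matched in that table. The mean over the 9 libraries was 17.3 FPKM for Accn2, 15.6 for Tom1l1, 13.9 for Mapt, 10.3 for Bcl6b, 9.51 for Hspa12a, 3.32 for Cecr6 and 2.40 for Snhg11. The ranges of the first 5 genes overlapped, from 1.75 to 17.7 FPKM for Hspa12a to 4.84 to 40.1 FPKM for Accn2. Across the 9 libraries, the 6 genes that were higher in betaSDmut had pairwise Pearson correlations of log2 CPM of 0.906 (Tom1l1 and Cecr6) to 0.990 (Tom1l1 and Cc2d2b). Hspa12a ran against each of them, with -0.923 against Tom1l1 and -0.710 against Cecr6. These correlations share the same libraries and follow the groups the genes were chosen on.

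Among 11545 genes with a mean log2 CPM of at least 2, the genes most like each member over the 9 libraries were ranked by Pearson r. Scnn1b (0.987) and Ndufv3 (0.972) were most like Accn2, and Cep290 (0.989) and Ppm1e (0.987) most like Mapt. Cc2d2b had Tom1l1 (0.990) and Bcl6b (0.989) as its nearest genes, and Tom1l1 had Tshz3 (0.991) and Cc2d2b (0.990). Bcl6b was followed by Cc2d2b (0.989) and Tspan33 (0.985), and Cecr6 by Rpa1 (0.981) and Pip4k2a (0.975). For Hspa12a the values were 0.988 for Gm2274 and 0.988 for Gabbr2. Those of Snhg11 were lower, 0.960 for Tmem30b and 0.943 for Zfp704.

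Relatives of the 8 genes by family, complex or place were listed to see whether each effect extended beyond the gene. These lists were drawn up with earlier results of these data known, so no enrichment is read from the shares below. Of 81 relatives, 69 were tested for the difference of islet effects and 3 were called by edgeR (4.35%, where 1.21% of all genes were). Each was higher in betaSDmut relative to betaKO: Scnn1a, Scnn1b and Cecr5. The median over the 69 was -0.01 on the log2 scale, beside 0.01 over all genes. In betaSDmut alone 5 of 68 were called (2 higher, 3 lower), or 7.35%, near the 7.94% of all genes. In betaKO 0 of 68 were called, where 1.56% of all genes were. No relative of Tom1l1, Mapt, Bcl6b, Hspa12a, Snhg11 or Cc2d2b was called for the difference.

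The acid-sensing channels belong to the same family as the epithelial sodium channel, whose subunits are encoded by Scnn1a, Scnn1b and Scnn1g. Of 4 family members tested besides Accn2, 2 were called for the difference of effects, with a list median of 0.89. Scnn1a was at 22.7, 25.3 and 14.6 CPM in betaSDmut against 2.72 and 2.86 CPM in 8-week controls, and at 1.30 and 1.72 CPM in betaKO against 1.43 and 1.13 CPM. It rose in betaSDmut (log2 2.89, SE 0.276, edgeR adjusted p 0.00602), was not called in betaKO (0.22, edgeR adjusted p 0.854) and differed between both effects (2.70, SE 0.421, edgeR adjusted p 0.0279). Every betaSDmut library lay above every other islet library, and the remaining 6 were all under 3 CPM.

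Scnn1b, the beta subunit and the relative of Accn2 with the highest level per length (mean 81.6 FPKM), was at 187, 210 and 205 CPM in betaSDmut against 127 and 121 CPM. It was at 118 and 116 CPM in betaKO against 144 and 146 CPM. As for Accn2, betaSDmut lay above and betaKO below their controls, with no overlap, but the changes were smaller. Scnn1b rose in betaSDmut (0.69, SE 0.0829, edgeR adjusted p 0.00933), was not called in betaKO (-0.31, SE 0.0758, edgeR adjusted p 0.145), and the effects differed by 1.00 (SE 0.108, edgeR adjusted p 0.00802). Over 14 alternative fits of the difference, Scnn1b was called in 13 (edgeR or DESeq2 adjusted p 2.84e-13 to 0.0856) and Scnn1a in 6 (3.12e-05 to 0.149). Scnn1b lost its call for the difference without 8-week control replicate 2. Scnn1a lost it without any 1 of the 4-week libraries or 8-week controls, without betaSDmut replicate 2 and with the acinar covariate. In betaSDmut alone, both lost their call without either 8-week control (edgeR adjusted p 0.0969 and 0.103 for Scnn1a, 0.12 and 0.15 for Scnn1b), and Scnn1b also without betaSDmut replicate 2 (0.0501).

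Cecr5, also named Hdhd5, neighbours Cecr6 on chromosome 6. It was at 25.3, 29.1 and 27.1 CPM in betaSDmut against 21.5 and 19.5 CPM, and at 16.8 and 14.6 CPM in betaKO against 31.0 and 26.7 CPM. Its libraries did not overlap in either set, and its directions were those of Cecr6. The effects of 0.40 (SE 0.0947, edgeR adjusted p 0.059) and -0.88 (SE 0.14, edgeR adjusted p 0.0561) were not called, and their difference of 1.28 (SE 0.168, edgeR adjusted p 0.0175) was. The difference was called in 9 of 14 alternatives (edgeR or DESeq2 adjusted p 1.03e-06 to 0.131) and not with a replicate block (edgeR adjusted p 0.0549), without betaKO replicate 2, 4-week control replicate 1 or either 8-week control. Of 23 protein-coding genes whose starts lie within 50 kb of a start of the 8 genes, 19 were tested. Cecr5 was the 1 called for the difference, where 1.21% of all genes were. Gpd1, near Accn2, was the 1 called in betaSDmut (1.37, SE 0.153, edgeR adjusted p 0.00809), where 7.94% of all genes were.

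**Figure D3:**
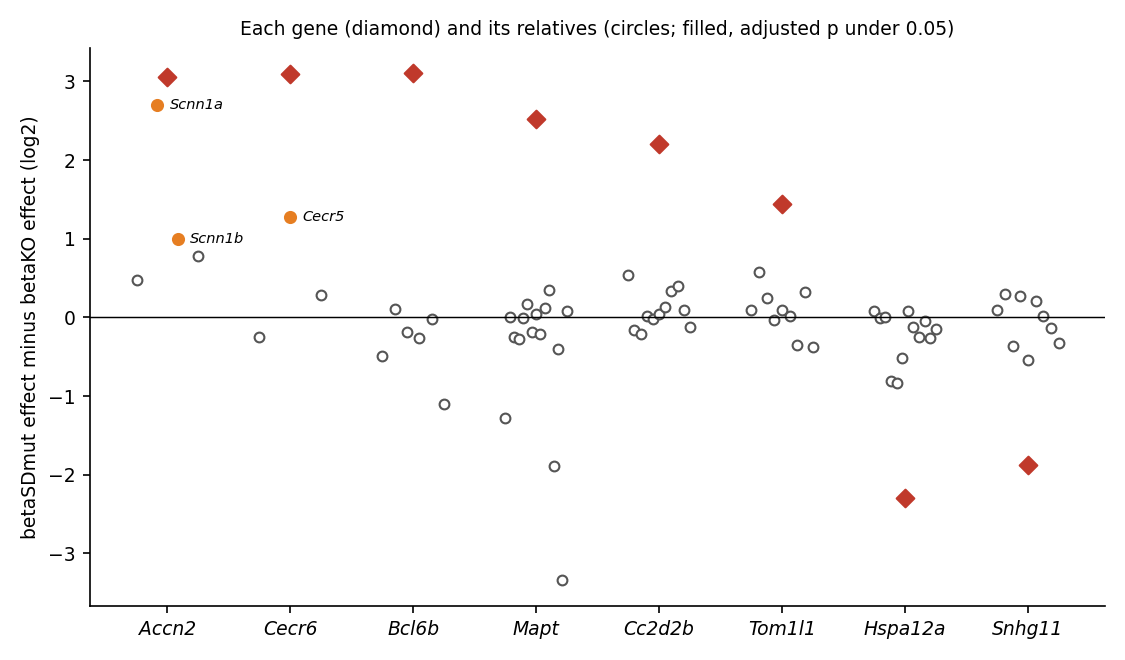
Difference of the islet effects (y axis, betaSDmut minus betaKO, log2) for each of the 8 genes (diamonds) and the relatives tested from its list (circles, filled where the edgeR adjusted p was under 0.05). The 3 filled circles are Scnn1a at 2.70, Scnn1b at 1.00 and Cecr5 at 1.28, under Accn2 and Cecr6.

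The most highly expressed relatives of the other genes, per length, had differences of effects that were not called. These were 0.17 (SE 0.138, edgeR adjusted p 0.656) for Mtap2, a dendritic microtubule-associated protein, and -0.26 (SE 0.12, edgeR adjusted p 0.389) for the corepressor gene Ncor1. They were -0.05 (SE 0.326, edgeR adjusted p 0.97) for Hspa5, the endoplasmic reticulum chaperone, and 0.53 (SE 0.248, edgeR adjusted p 0.394) for the transition zone gene B9d1. For Snhg1 the difference was 0.29 (SE 0.242, edgeR adjusted p 0.658) and for Tollip, an endosomal adaptor, -0.35 (SE 0.156, edgeR adjusted p 0.375). Tollip fell in betaSDmut (-0.81, SE 0.0883, edgeR adjusted p 0.00738), opposite in sign to Tom1l1. Stmn4 had the largest value among the relatives of Mapt, -3.34 (SE 1.20, edgeR adjusted p 0.274), at no more than 0.823 CPM in any islet library; it is named here after its value was seen.

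Nkx2.2 sites in MIN6 cells give a readout that did not enter the choice of genes. The authors' final set holds 6473 sites, and 6 of the 8 genes had at least 1 site within 50 kb of an annotated start (GENCODE vM21, GRCm38), where 28.7% of 21924 protein-coding genes did. Within 10 kb, 5 of 8 had a site, against 10.4%, and 8 of 8 within 100 kb, against 43.7%. The 8 genes have 1 to 11 annotated starts each, which bears on how often a site lies near one. These shares are over all annotated protein-coding genes, expressed in islets or not, whereas the 8 genes all passed the islet count filter. No share among genes of like islet level was taken, so no enrichment is read from these counts. In the authors' deposited table, sites were joined to 4 of the 8 genes (50%: Cecr6, Mapt, Bcl6b and Snhg11) and to 26.0% of the 9971 genes of their islet table. MIN6 cells carry wildtype binding only, so these sites say nothing of binding by the mutant protein.

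The windows below are shown because they are the sites nearest to a start of 5 genes higher in betaSDmut. Each is 101 bases of the GRCm38 plus strand, 5′ to 3′, with the capital marking the deposited site position.
Accn2, chr15:99695013-99695113: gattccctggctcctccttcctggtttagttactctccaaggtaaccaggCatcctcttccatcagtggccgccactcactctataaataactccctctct
Cc2d2b, chr19:40757353-40757453: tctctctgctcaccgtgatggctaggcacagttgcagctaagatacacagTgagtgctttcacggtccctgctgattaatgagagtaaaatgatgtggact
Bcl6b, chr11:70228977-70229077: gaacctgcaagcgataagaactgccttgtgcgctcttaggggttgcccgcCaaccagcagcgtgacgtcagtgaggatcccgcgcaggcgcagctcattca
Mapt, chr11:104228529-104228629: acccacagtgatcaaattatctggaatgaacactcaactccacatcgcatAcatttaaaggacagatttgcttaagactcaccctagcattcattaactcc
Cecr6, chr6:120510743-120510843: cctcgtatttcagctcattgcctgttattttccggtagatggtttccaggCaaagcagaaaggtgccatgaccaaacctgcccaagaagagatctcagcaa

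The Accn2 site lies 19 bp from the start of a transcript of Asic1 (chromosome 15, 99670368 to 99701130, plus strand), in an exon that is not annotated as coding or untranslated. Its log2 CPM was 7.12 and 7.20 in the 2 replicates, percentile 67.0 of the final set. Further Nkx2.2 sites lay 20265, 25467 and 28618 bp from Accn2 starts, nearest to Gpd1, Racgap1 and Cox14. The Cc2d2b site, 875 bp before a start and in an intron of the gene (chromosome 19, 40748753 to 40827743, plus strand), was among the strong ones, with 8.54 and 8.87 log2 CPM at percentile 95.7. Neither gene was joined to a site in the authors' table.

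The Bcl6b site lies 650 bp after a start, in a coding exon (gene at chromosome 11, 70224128 to 70229798, minus strand), at 6.90 and 6.74 log2 CPM and percentile 49.9. The Mapt site lies 2811 bp before the first start, outside genes (Mapt at chromosome 11, 104231390 to 104332090, plus strand), and is weaker, at 6.05 and 6.45 log2 CPM and percentile 12.1. The Cecr6 site lies 16986 bp before its start (Tmem121b at chromosome 6, 120488939 to 120493807, minus strand), at 7.22 and 7.40 log2 CPM and percentile 73.1. This site is in a coding exon of Hdhd5, the gene called Cecr5 in the islet table. Its part in the values of either gene was not tested. The site joined to Snhg11 (chromosome 2, 158375638 to 158386145, plus strand) lies 7903 bp after a start in an annotated untranslated region, at 6.22 and 6.71 log2 CPM. Hspa12a (chromosome 19, 58795750 to 58943654, minus strand) and Tom1l1 (chromosome 11, 90643465 to 90688366, minus strand) had no final site within 50 kb, and Tom1l1 had a weaker event outside the final set, with 46 and 44 counts, 9480 bp from a start.

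**Figure D4:**
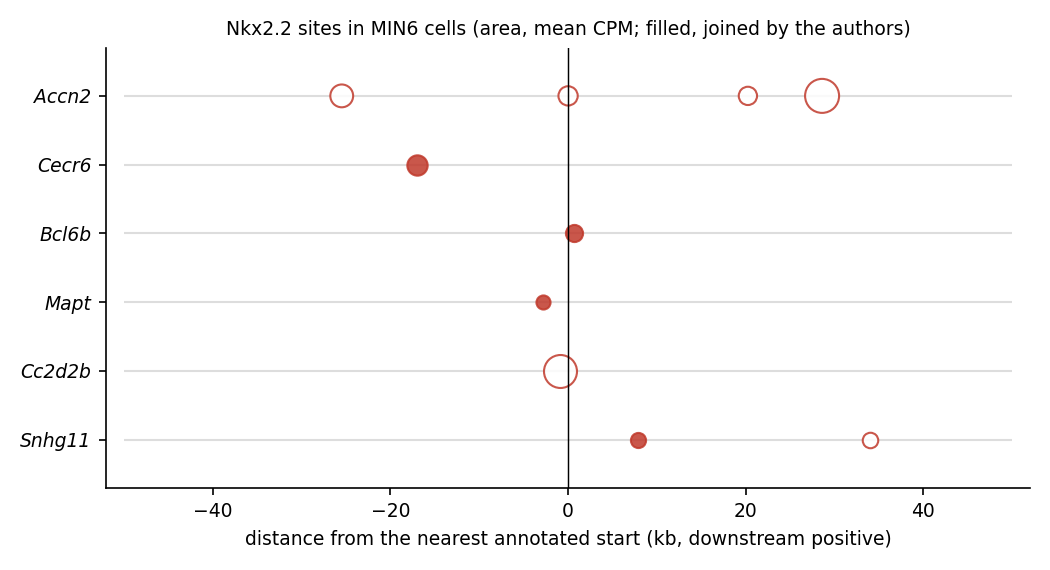
Nkx2.2 sites of the final set within 50 kb of an annotated start of the 8 genes: distance from the nearest start (x axis, kb, downstream positive) for the 6 genes that have one (y axis), with the area of each circle in proportion to the mean CPM and filled circles for sites the authors joined to that gene. The site of Cc2d2b near 0 and the Accn2 site farthest downstream are the largest circles.

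AAGTG, the core letters of NK2 homeodomain sites, was searched on both strands. It was found in 0 of the 5 windows printed, where 22.7% of the final sites hold it in windows of 101 bases. In windows of 301 bases, 3 of the 10 sites near the 8 genes held AAGTG, against 53.7% of all final sites, and 1 of 10 held the longer TNAAGTG, which contains AAGTG, against 20.2%. RefSeq promoter windows (GRCm38.p6, 250 bases before to 50 after a start) were matched for 6 of the 8 genes, in 8 windows; Mapt and Bcl6b were not matched. AAGTG was in 2 of these 8 windows (1 each of Tom1l1 and Cc2d2b), against 46.4% of all 32851 windows, and TNAAGTG in 0 of 8, against 11.5%.

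The counting rule's use of strand is not given in the sources used here, so overlaps between genes bear on 2 members. Tom1l1 shares 1106 exonic bases with Cox11 on the opposite strand, and Hspa12a shares 332 with Eno4. Neither partner was called: the difference of effects was 0.27 (SE 0.196, edgeR adjusted p 0.594) for Cox11 and -0.59 (SE 0.501, edgeR adjusted p 0.671) for Eno4. Snhg11 holds small nucleolar RNA genes on its own strand, 1 of which shares 133 exonic bases with it.

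Whole embryonic pancreas with the SD mutation gave a test in animals that the choice of genes did not use. None of the 8 genes was called by edgeR (adjusted p 0.99979 for each; 0.00534% of 18723 genes were called), and none separated the groups without overlap, as 3.58% of all genes did. The titles give 2 controls and 2 mutants one shared number, and 1 control and 1 mutant another; what the number marks is not stated, and with it as a block 0 of the 8 genes were called. Tom1l1 was the highest of the 8 in CPM, at 73.7, 54.9 and 53.4 in controls and 57.7, 53.0, 79.1 and 80.6 in mutants (log2 0.16, SE 0.192). Bcl6b was at 16.0, 19.7 and 26.7 CPM in controls and 32.5, 23.6, 12.6 and 19.0 CPM in mutants (0.08, SE 0.321). Both genes had overlapping groups. The 6 beta-cell markers summed to 288 to 812 CPM in controls and 53.8 to 104 CPM in mutants, and their part in these values was not tested.

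Mapt was at 8.94, 42.8 and 4.54 CPM in embryonic controls and 6.04, 11.8, 8.04 and 8.47 CPM in mutants (log2 -1.13, SE 0.692). Asic1 was at 3.42, 13.4 and 7.29 CPM in controls and 6.20, 8.74, 3.28 and 3.59 CPM in mutants (-0.56, SE 0.515), and Snhg11 at 1.55, 7.90 and 2.15 CPM against 1.34, 5.66, 0.907 and 3.09 CPM (-0.49, SE 0.773). Control 2 was the highest library for all 3 genes. The sum of 6 Schwann and neuron markers was 46.0 to 166 CPM in controls and 30.1 to 83.5 CPM in mutants, with its part in these values not tested. Without control 2 the values were 0.35 for Mapt, 0.57 for Snhg11 and 0.03 for Asic1, so their sign rested on that library. Xist, taken as a marker of female animals, was at 0.121, 1574 and 0.0778 CPM in controls. In mutants it was at 0.0775, 700, 0.319 and 791 CPM. The part of sex in these values was not tested. The values of the other genes were -0.44 (SE 0.272) for Cecr6, -0.42 (SE 0.36) for Hspa12a and 0.71 (SE 0.452) for Cc2d2b, which was at no more than 1.64 CPM.

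In progenitors, 7 of the 8 genes were tested; Cc2d2b was not matched in that table. Nkx2-2 was at 11.6, 5.40 and 10.7 CPM in pMN, 378, 343 and 343 CPM in iNkx2.2 and 248 and 245 CPM in iSDmut. The pMN libraries are of the iNkx2.2 line and none is of the untreated iSDmut line, so induction within that line was not measured. In the main fit, which did not pair replicates, Asic1 was the 1 gene of 7 called with iNkx2.2, where 9.49% of all genes were. It lay lower in every iNkx2.2 library than in every pMN library, as did 15.4% of all genes tested. It fell from 13.0, 8.31 and 10.6 CPM in pMN to 4.35, 4.83 and 4.07 CPM (log2 -1.27, SE 0.302, edgeR adjusted p 0.032). In iSDmut it was at 8.62 and 3.74 CPM, which overlapped pMN (-0.79, SE 0.342, edgeR adjusted p 0.232), and iSDmut did not differ from iNkx2.2 by the test (0.48, SE 0.336, edgeR adjusted p 0.603). The authors' deposited table also called it lower with wildtype Nkx2.2 (-1.22) and not with the mutant.

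The call of Asic1 held in 7 of 13 alternatives (edgeR or DESeq2 adjusted p 0.00105 to 0.128; log2 -1.41 to -1.09) and was lost without any 1 of the 3 pMN or 3 iNkx2.2 libraries. Bcl6b was at 1.06, 1.40 and 2.03 CPM in pMN, 2.27, 3.58 and 3.70 CPM in iNkx2.2 and 1.18 and 3.03 CPM in iSDmut. The iNkx2.2 libraries lay above every pMN library, as they did for 16% of all genes tested. Its log2 value with iNkx2.2 was 1.06 (SE 0.406, edgeR adjusted p 0.137). In the fit that blocked on replicate number, pairing pMN with iNkx2.2 libraries, it was called (1.10, edgeR adjusted p 0.0141). The other 5 genes were not called with iNkx2.2 with or without that block.

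Hspa12a was at 40.1, 20.7 and 42.0 CPM in pMN, 50.4, 34.8 and 43.2 CPM in iNkx2.2 and 54.4 and 47.6 CPM in iSDmut. Snhg11 was at 48.1 to 69.6 CPM in pMN, 43.8 to 131 CPM in iNkx2.2 and 81.8 and 83.8 CPM in iSDmut. Cecr6 was at 2.84, 2.12 and 2.79 CPM in pMN and 4.31 and 3.87 CPM in iSDmut. Both iSDmut libraries exceeded every pMN library for these 3 of 7 genes, as they did for 17.2% of all genes tested, without a call, by 0.57 (SE 0.268, edgeR adjusted p 0.272) for Hspa12a, 0.57 (SE 0.366, edgeR adjusted p 0.429) for Snhg11 and 0.66 (SE 0.31, edgeR adjusted p 0.274) for Cecr6. With the replicate block Hspa12a was called (0.72, edgeR adjusted p 0.0498). That block pairs iSDmut with pMN by number, where deviations from group means correlated at only 0.343 and 0.0503, so the call rests on an uncertain pairing. Without the block, none of the 7 genes was called with iSDmut against pMN (3.54% of all genes were) or against iNkx2.2 (0.281% were).

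**Figure D5:**
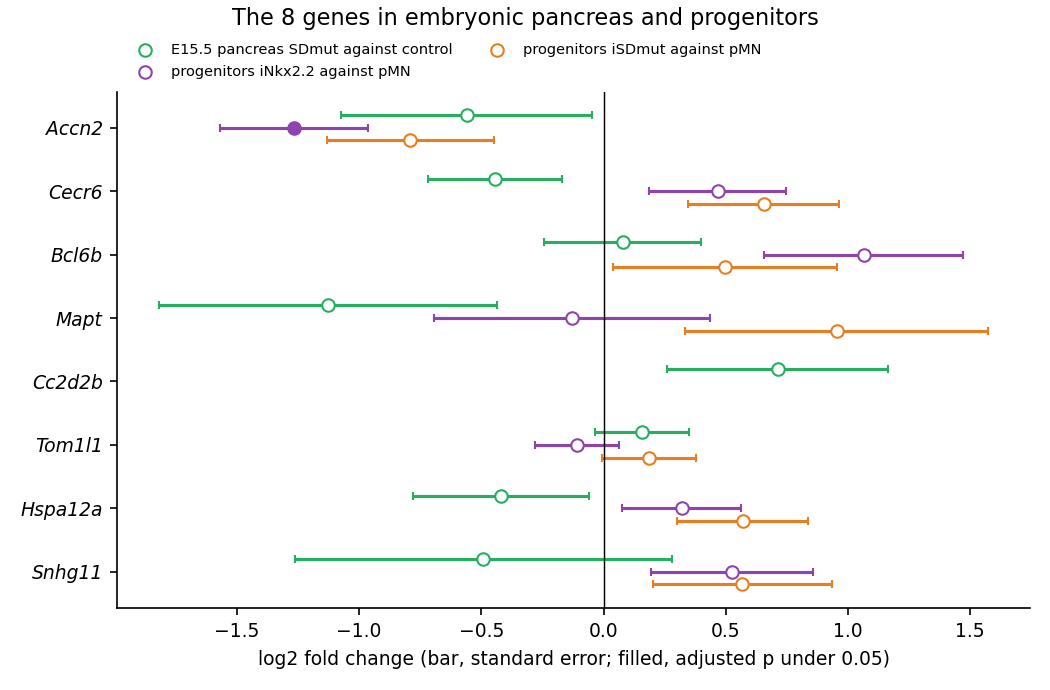
Log2 fold change (x axis) with standard errors for each of the 8 genes (y axis) in embryonic SDmut pancreas against controls and in iNkx2.2 and iSDmut progenitors against pMN; filled points had an edgeR adjusted p under 0.05. The only filled point is Accn2 (Asic1) with iNkx2.2, at -1.27; Cc2d2b has an embryonic value only.

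The relatives of Mapt, which include neuronal microtubule and tubulin genes, were tested with iNkx2.2 beside Mapt itself, which was not called (log2 -0.13, SE 0.565, edgeR adjusted p 0.914). That list was drawn up with earlier results of these data known, so no enrichment is read from its counts. Of the 15 tested, 5 rose, 1 fell and 9 were not called, where 9.49% of all genes were called in either direction, with a median of 0.22 beside -0.01 over all genes. Those that rose were Map1a (0.97), Map2 (1.19), Stmn1 (0.34), Stmn3 (0.67) and Tubb3 (1.01), and Map7 fell (-1.63, SE 0.131, edgeR adjusted p 0.000201). Map7, which encodes a microtubule-associated protein of epithelia, was at 36.6, 39.3 and 32.8 CPM in pMN, 11.8, 10.3 and 12.8 CPM in iNkx2.2 and 10.6 and 11.4 CPM in iSDmut. It also fell in iSDmut (-1.72, SE 0.153, edgeR adjusted p 0.000956), where Stmn3 rose (0.99, SE 0.184, edgeR adjusted p 0.022). The sum of 6 Schwann and neuron markers, which include Tubb3, was 206 to 418 CPM in pMN, 728 to 943 in iNkx2.2 and 760 to 788 in iSDmut; its part in these changes was not tested. In islets Map7, listed as Mtap7, was not called for the difference of effects (-0.21, SE 0.104, edgeR adjusted p 0.427).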

How the data were processed

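Read counts per gene were deposited by the authors without normalization; STAR, Cufflinks, DESeq2, edgeR and mm10 are named without a role in the submitters' processing notes, and the counter, annotation and use of strand are not given in the sources used here. The authors also deposited FPKM tables, a normalized signal table for the embryonic pancreas, tables of log2 fold changes with p-values and call scores, and log2 CPM and counts at Nkx2.2 sites, per the file headers. The signal table and the p-values were read only to establish what they hold.

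Tests on counts used edgeR 4.0.16 under R 4.3.3 (TMM, filterByExpr, robust quasi-likelihood fit and test), adjusted by Benjamini-Hochberg over all genes at 0.05. SE was taken as log2 fold change over root F, without sign. CPM are TMM-scaled. Each age of islets was fitted alone, the difference of effects on all 9 libraries, progenitors in 1 model of 3 groups. DESeq2 1.42.0 was an alternative. The fits were also run on simulated counts with the same spread for all genes and no pairing. That setting differs from these libraries, so nothing about the calls here is read from it. Sites were joined to starts within 50 kb with Python 3.11.15, and sequences were read with pysam 0.24.0.

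The 8 genes and the lists of relatives and markers were chosen with earlier results of these data known. Named were the 8 genes, Nkx2-2, relatives called in the difference of effects or else the highest per length, the 2 most similar genes, and nearby sites; relatives called in another comparison were named beside their count. Replicate numbers were taken as pairs for pMN and iNkx2.2, since deviations from group means correlated at 0.535, 0.513 and 0.568, and not for islets (-0.12 to -0.06). Deviations of iSDmut correlated at 0.343 and 0.0503 with pMN and at 0.332 and 0.112 with iNkx2.2. The main fits did not use pairs, and the block was an alternative. Site positions are used as deposited.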

Additional observations from a re-analysis of the deposited data

Results flagged for a closer look

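For 7 of the 8 genes every betaSDmut library lay on one side of its controls and every betaKO library on the other, in either direction, as for 6.05% of all genes (893 of 14762); the genes were chosen for it, so nothing is read from the count. The difference of effects on the log2 scale was 3.05 for Accn2, 1.44 for Tom1l1, 3.10 for Cecr6, 2.52 for Mapt, 3.11 for Bcl6b, -1.88 for Snhg11 and 2.21 for Cc2d2b. The genes were selected on these values, so the difference was not tested for them here. For Snhg11 the 8-week controls were the libraries that stood apart, above the 4-week controls by 1.41.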

How the results depend on the processing

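The 2 islet effects of the 8 genes and their difference kept their sign under every alternative run. The authors' deposited table, with 1 control term for both genotypes, gave the opposite sign for Snhg11 in betaKO (-0.47, not called). The number of genes called in betaSDmut was 1224, and 2041 with DESeq2, 757 with a replicate block and 37 to 2765 without 1 library (45 and 37 without 8-week control 1 or 2, 2765 and 384 without betaSDmut replicate 1 or 2). In betaKO it was 233, and 372 without a filter, 770 with DESeq2, 428 with all 9 libraries in one model and 4 to 478 without 1 library. For the difference it was 194, and 653 with DESeq2, 87 with a replicate block, 114 with the acinar covariate and 0 to 343 without 1 library, 0 being without 8-week control 2. In the embryo it was 1, with 25 by DESeq2, 0 with the title number as a block and 0 to 2 without 1 library, and 0 of the 8 genes were called in each of these fits. With iNkx2.2 it was 1486, with 2271 by DESeq2, 4629 with a replicate block and 412 to 1604 without 1 library, and the number of the 7 genes called was 1, or 2 with the block and 0 to 1 without 1 library. With iSDmut it was 554, with 1382 by DESeq2, 2626 with the block, 295 in the fit of the 2 groups and 171 to 471 without 1 library; with the block 1 of the 7 genes, Hspa12a, was called (0.72, edgeR adjusted p 0.0498). For iSDmut against iNkx2.2 it was 44, with 145 without a filter, 473 by DESeq2, 528 with the block, 13 in the fit of the 2 groups and 1 to 467 without 1 library. The cause of these changes was not tested, except that fits without a library have fewer samples. The replicate numbers do not pair islet libraries, and for iSDmut with pMN the deviations correlated at only 0.343 and 0.0503. Of the 8 genes, those with a nearby site numbered 5, 6 and 8 for windows of 10, 50 and 100 kb. Levels were low for Bcl6b in progenitors and Cc2d2b in the embryo, at no more than 3.70 and 1.64 CPM; the part of depth was not tested.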
